A study of Mus musculus with 8 samples.

Results

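Immunoglobulin variable gene usage was examined in RNA-seq of whole mouse lungs, as the 218 genes that the count table annotates as functional immunoglobulin variable (V) genes among 54532 genes in all. They comprised 113 heavy chain genes (Ighv), 100 kappa light chain genes (Igkv), 3 lambda light chain genes (Iglv) and 2 genes of the kappa region with no V gene name, Gm43218 and Gm42543, which held at most 3 reads in any library and are left aside. All 8 mice were CC-LR (CCSPCre/LSL-K-rasG12D), on a C57BL/6 background, in which Cre expressed from the club cell secretory protein locus switches on mutant K-ras in the lineage of airway club cells, so control and treated mice alike carried the lung tumor model. The Control group held 4 mice, and the other 4 received TTI-101, a small-molecule inhibitor of STAT3, over 4 weeks. All were 14 weeks old, and each mouse gave 1 library. The comparison addressed whether V gene transcripts in the tumor-bearing lung differed under STAT3 inhibition. The route of dosing and the treatment of the Control mice were not stated for these 8 mice.

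Each developing B cell joins a V gene to downstream segments by V(D)J recombination. The V genes read in a tissue thus reflect which V genes its B cells and plasma cells use and how much antibody RNA they make. Counts per V gene do not hold the junction of the segments, so they do not tell clones apart. The V region forms most of the antigen-binding domain, through framework stretches that neighbouring genes share and complementarity-determining loops in which they differ. In lung, antibody transcripts come from circulating and resident B cells and from plasma cells, the latter with far more antibody RNA per cell. In whole-lung RNA, more cells of a type and more RNA per cell cannot be told apart.

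The V genes lie in 3 clusters of the mouse build GRCm38. The Ighv genes span chr12:113578504-116000461 on the minus strand, the Igkv genes span chr6:67555497-70704177 with 38 genes on the plus and 62 on the minus strand, and the Iglv genes span chr16:19085017-19260859 on the minus strand. Deposited gene lengths ran from 294 to 501 bases, and levels of different genes are therefore compared per kb. The 4 pairs printed here hold genes that lead a library or the treatment comparison, each beside a relative of its own family, to show how few bases separate the genes to which reads were assigned. Each line gives the last 300 bases of the germline transcript from GENCODE M21, 5′ to 3′ on the coding strand, and capitals mark the bases that differ from the other gene of the pair.
Ighv1-55: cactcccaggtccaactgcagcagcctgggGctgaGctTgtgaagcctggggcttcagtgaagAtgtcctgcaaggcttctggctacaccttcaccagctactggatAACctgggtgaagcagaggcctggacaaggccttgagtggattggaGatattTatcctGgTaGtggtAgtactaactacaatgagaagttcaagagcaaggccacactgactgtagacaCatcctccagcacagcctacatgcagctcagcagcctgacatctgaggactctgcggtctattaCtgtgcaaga
Ighv1-53: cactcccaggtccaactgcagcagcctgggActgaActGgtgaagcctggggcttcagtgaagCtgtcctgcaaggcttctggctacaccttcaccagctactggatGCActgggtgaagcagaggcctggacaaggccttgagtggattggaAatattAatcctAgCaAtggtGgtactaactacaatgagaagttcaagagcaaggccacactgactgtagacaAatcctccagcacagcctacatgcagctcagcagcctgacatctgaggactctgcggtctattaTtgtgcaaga
Igkv1-117: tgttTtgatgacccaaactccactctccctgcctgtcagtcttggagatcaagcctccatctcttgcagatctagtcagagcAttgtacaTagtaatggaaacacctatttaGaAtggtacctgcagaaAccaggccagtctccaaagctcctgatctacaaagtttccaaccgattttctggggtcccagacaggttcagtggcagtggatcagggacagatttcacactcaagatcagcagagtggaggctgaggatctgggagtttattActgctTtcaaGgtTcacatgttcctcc
Igkv1-110: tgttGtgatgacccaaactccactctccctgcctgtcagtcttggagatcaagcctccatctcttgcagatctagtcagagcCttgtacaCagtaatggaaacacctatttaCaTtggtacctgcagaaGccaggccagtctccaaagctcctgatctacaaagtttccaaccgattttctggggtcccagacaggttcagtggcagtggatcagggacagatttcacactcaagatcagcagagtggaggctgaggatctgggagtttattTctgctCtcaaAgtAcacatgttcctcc
Igkv3-4: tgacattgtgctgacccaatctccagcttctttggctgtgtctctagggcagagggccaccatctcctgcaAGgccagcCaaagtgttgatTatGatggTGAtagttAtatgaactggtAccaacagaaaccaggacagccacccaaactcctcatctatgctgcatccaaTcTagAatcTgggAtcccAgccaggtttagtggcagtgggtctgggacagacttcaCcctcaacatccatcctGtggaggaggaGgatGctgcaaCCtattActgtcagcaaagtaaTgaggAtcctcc
Igkv3-2: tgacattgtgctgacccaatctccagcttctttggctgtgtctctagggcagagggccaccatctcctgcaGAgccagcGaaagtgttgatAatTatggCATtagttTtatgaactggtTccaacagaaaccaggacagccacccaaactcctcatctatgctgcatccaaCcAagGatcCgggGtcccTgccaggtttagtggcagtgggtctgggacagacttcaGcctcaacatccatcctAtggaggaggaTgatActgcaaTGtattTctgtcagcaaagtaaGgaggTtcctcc
Iglv1: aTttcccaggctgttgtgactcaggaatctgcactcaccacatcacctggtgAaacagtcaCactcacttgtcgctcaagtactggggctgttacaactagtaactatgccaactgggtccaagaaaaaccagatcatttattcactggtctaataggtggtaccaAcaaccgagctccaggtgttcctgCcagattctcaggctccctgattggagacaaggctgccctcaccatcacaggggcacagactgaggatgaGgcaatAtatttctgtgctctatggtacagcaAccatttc
Iglv2: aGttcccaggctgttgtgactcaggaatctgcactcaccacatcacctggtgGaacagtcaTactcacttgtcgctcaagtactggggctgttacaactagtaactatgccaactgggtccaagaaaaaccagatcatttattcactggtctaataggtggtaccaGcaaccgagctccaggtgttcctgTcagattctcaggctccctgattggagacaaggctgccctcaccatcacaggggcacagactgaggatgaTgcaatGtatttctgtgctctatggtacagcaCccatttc
The stretches are Ighv1-55 at chr12:115208095-115208394 and Ighv1-53 at chr12:115158403-115158702 (minus strand), Igkv1-117 at chr6:68121528-68121827 and Igkv1-110 at chr6:68270968-68271267 (plus strand), Igkv3-4 at chr6:70672078-70672377 and Igkv3-2 at chr6:70698768-70699067 (plus strand), and Iglv1 at chr16:19085017-19085316 and Iglv2 at chr16:19260401-19260700 (minus strand). Over their whole aligned transcripts, Igkv1-117 and Igkv1-110 were 97.5% identical with 10 differences, Iglv1 and Iglv2 96.7% with 12, Ighv1-55 and Ighv1-53 95.4% with 16, and Igkv3-4 and Igkv3-2 91.4% with 31. The median V gene shared 5.84% (Ighv) or 5.78% (Igkv) of its 75-base words with another immunoglobulin gene or pseudogene of any locus, among genes with a read. How reads that match several V genes were counted is not given in the sources used here, so values of close relatives are uncertain. Ighv1-72 shared 71.7% of its 75-base words with other genes.

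V gene reads were a small part of every library. Total counts per library ranged from 16075855 to 26873509. Control 1 had the highest total, TTI-101 1 had 25920509, and the other libraries had at most 18220467. V gene reads ranged from 397 in Control 4 to 8234 in Control 1. At least 1 read was found for 200 of the 218 V genes, and 18 had none in any library, comprising 15 Ighv genes, 2 Igkv genes and 1 unnamed gene. A read was present in all 4 TTI-101 libraries for 59 of 113 Ighv and 63 of 100 Igkv genes, against 10 Ighv and 19 Igkv genes in all 4 Control libraries. The Control counts were capped by Control 4, where 18 Ighv and 29 Igkv genes had a read, from 129 and 235 reads. Control 1 had a read for 83 and 80 genes. These counts were not made at equal reads, so they do not set the groups apart. The edgeR filter on low counts kept 57 V genes (23 Ighv, 31 Igkv and 3 Iglv) among 17138 genes tested, and the other 161 were described by counts only. Control 1 stood apart from Control 2 to 4 in all 3 clusters, and results that rest on it are given with and without it.

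Summed over all genes of a cluster, V gene expression was higher in each TTI-101 lung than in Control 2 to 4, while Control 1 lay among or above the TTI-101 lungs. On the scale of CPM, read counts divided by the library size after TMM scaling, the Ighv sum was 128, 11.9, 14.9 and 8.25 in Control 1 to 4 and 59.3, 100.04, 50.9 and 32.6 in TTI-101 1 to 4. The Igkv sum was 140.4, 23.6, 20.7 and 15.0 in Control 1 to 4 and 97.3, 182, 82.6 and 55.3 in TTI-101 1 to 4. The Iglv sum was 33.2, 7.05, 4.77 and 2.11 in Control 1 to 4 and 30.5, 20.1, 14.8 and 11.7 in TTI-101 1 to 4. In each cluster all 4 TTI-101 libraries lay above Control 2 to 4, while Control 1 lay above all TTI-101 libraries for Ighv and Iglv and below only TTI-101 2 for Igkv. Control libraries spread 15.6-fold for Ighv, 9.34-fold for Igkv and 15.7-fold for Iglv, compared with 3.07-fold, 3.30-fold and 2.61-fold among TTI-101 libraries.

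The group means differed by less than the Control SD in every cluster. The Ighv sum averaged 40.9 ± 58.4 CPM among Control and 60.7 ± 28.5 CPM among TTI-101 lungs (SD, n = 4 each), a 1.49-fold ratio. The Igkv sum was 49.9 ± 60.4 and 104 ± 54.7 CPM (SD, n = 4 each), a 2.09-fold ratio, and the Iglv sum was 11.8 ± 14.4 and 19.3 ± 8.27 CPM (SD, n = 4 each), a 1.63-fold ratio. Without Control 1, the ratios were 5.20-fold for Ighv, 5.27-fold for Igkv and 4.15-fold for Iglv. No p-value is given for these sums. Markers of B cells moved with the same groups, and the part of B cell number in the V gene sums was not tested. All 8 B cell genes measured here (Ms4a1, Cd79a, Cd79b, Cd22, Pax5, Blk, Fcmr and Cr2) were higher at an unadjusted edgeR p under 0.05, where 3.02% of all genes tested were, and their summed level ranged from 97.2 to 265 CPM in Control and from 235 to 479 CPM in TTI-101 lungs. The ranges overlapped through Control 1, at 265 CPM, and TTI-101 2, at 235 CPM.

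**Figure D1:**
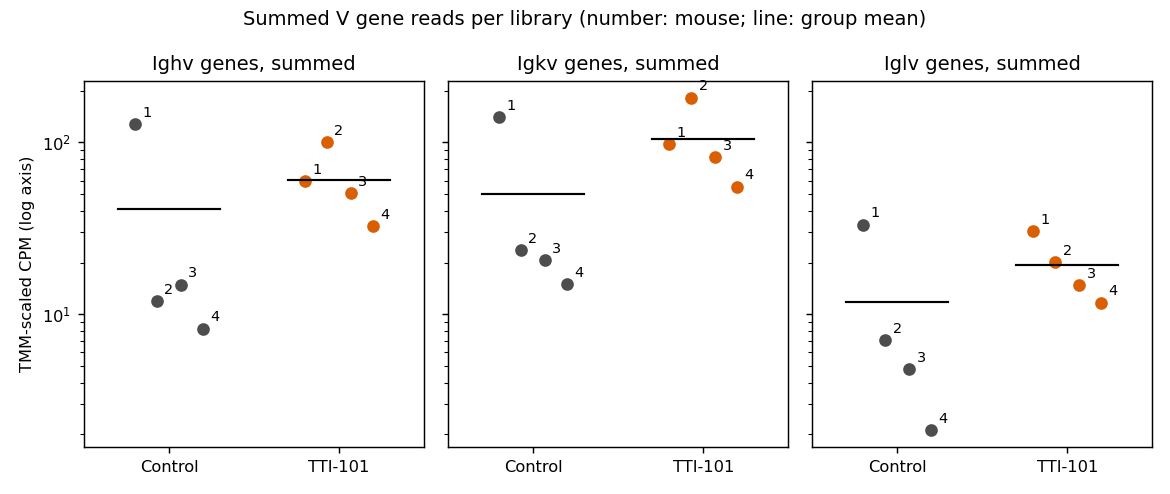
Summed TMM-scaled CPM (log axis) of the Ighv, Igkv and Iglv genes in each library, with the mouse number beside each point and a line at the group mean. Control 1, at 128, 140.4 and 33.2 CPM, sits among or above the TTI-101 libraries, while Control 2 to 4 sit below all of them.

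The make-up of the V reads by cluster differed less than their amount. Ighv genes held 27.9% to 42.5% of V gene reads in Control and 31.7% to 34.3% in TTI-101 libraries, and Igkv genes held 46.5% to 59.2% and 52.0% to 60.3%. Kappa V reads per kb exceeded lambda V reads per kb 3.47-fold to 7.28-fold in Control and 3.31-fold to 9.36-fold in TTI-101 libraries. The kappa excess was highest in TTI-101 2, whose Igkv reads were led by Igkv3-4 and Igkv1-117.

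Different V genes led different lungs. By share of the reads per kb of the cluster, the most used Ighv gene was Ighv1-26 in Control 1 (9.85%), Ighv7-3 in Control 2 (9.27%), Ighv3-6 in Control 3 (8.64%) and Ighv1-9 in Control 4 (19.7%). It was Ighv1-53 in TTI-101 1 (6.89%), Ighv1-55 in TTI-101 2 (14.8%), Ighv5-9-1 in TTI-101 3 (6.22%) and Ighv1-26 in TTI-101 4 (6.45%). The 8 libraries thus had 7 different leading heavy chain genes, and Ighv1-26 led in 1 library of each group. Several leads were narrow: the second gene held 9.63% in Control 1, 9.01% in Control 2 and 6.75% in TTI-101 1. By reads alone, the second gene was ahead in Control 1 (345 against 332) and TTI-101 1 (112 against 104). It was level in Control 3, at 22 reads each. Who led thus depended in part on the division by gene length. These shares rested on few reads in Control lungs: Ighv1-9 had 24 of 129 Ighv reads in Control 4 (18.6% of reads, exact 95% confidence interval 12.3% to 26.4%), and Ighv7-3 had 18 of 199 in Control 2 (9.05%, 5.45% to 13.9%). Ighv1-55 had 277 of 1666 in TTI-101 2 (16.6%, 14.9% to 18.5%). The intervals cover counting error only.

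The most used kappa gene was Igkv1-117 in 4 of the 8 libraries. It led in Control 2 (9.53% of Igkv reads per kb), TTI-101 1 (7.99%), TTI-101 3 (7.69%) and TTI-101 4 (6.57%). Igkv10-96 led in Control 1 (11.3%), Igkv1-110 in Control 3 (14.8%), Igkv3-12 in Control 4 (14.4%) and Igkv3-4 in TTI-101 2 (23.0%). In TTI-101 2, Igkv1-117 came next with 17.7% and Igkv3-2 after it with 5.96%. Igkv3-4 had 672 of 3034 Igkv reads in that library (22.1%, exact 95% confidence interval 20.7% to 23.7%), the highest share of any Ighv or Igkv gene in any library. Among lambda genes, Iglv1 led in every library except Control 4, where Iglv2 held 56.0% of Iglv reads per kb, with 18 of 33 reads.

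**Figure D2:**
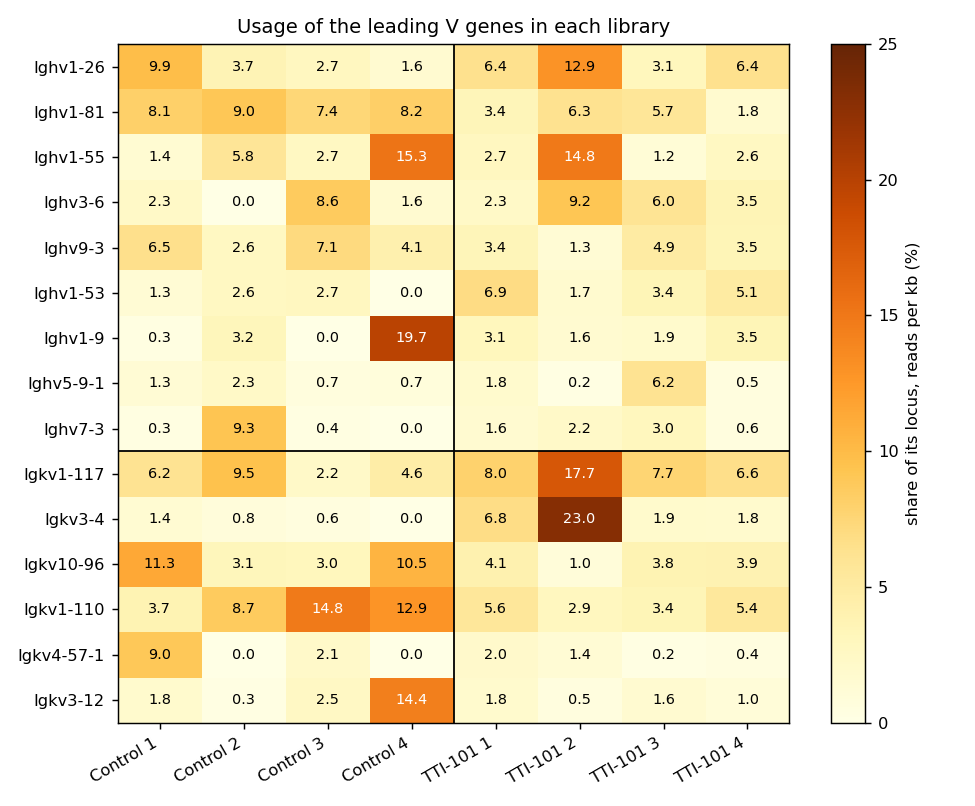
Share (%) of the reads per kb of its cluster held by each leading Ighv gene (above the horizontal line) and Igkv gene (below it) in the 8 libraries, with Control on the left of the vertical line. Igkv3-4 reached 23.0% in TTI-101 2, Ighv1-9 19.7% in Control 4 and Igkv1-117 17.7% in TTI-101 2, and most other cells lie below 10%.

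The spread of reads over genes was described by the effective number of genes, the number of equally used genes that would give the same chance of drawing the same gene in a pair of reads (unbiased inverse Simpson index of counts). For Ighv it was 23.3, 23.6, 23.9 and 9.83 in Control 1 to 4 and 37.4, 15.0, 37.1 and 44.1 in TTI-101 1 to 4. For Igkv it was 23.6, 26.7, 17.8 and 13.9 in Control 1 to 4 and 33.6, 10.0, 36.0 and 39.4 in TTI-101 1 to 4. TTI-101 1, 3 and 4 lay above every Control library in both clusters, while TTI-101 2 lay below 3 of 4 Control libraries for Ighv and below all 4 for Igkv. At an equal number of reads, set by Control 4, the expected number of genes seen among 129 Ighv reads was 18.0 to 40.6 in Control and 35.9 to 51.9 in TTI-101 libraries. Among 235 Igkv reads it was 29.0 to 51.7 in Control and 44.0 to 61.5 in TTI-101 libraries.

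The share of the leading gene overlapped between groups. The leading Ighv gene held 11.9 ± 5.26% among Control and 8.60 ± 4.17% among TTI-101 lungs (SD, n = 4 each), and the leading Igkv gene held 12.5 ± 2.53% and 11.3 ± 7.81% (SD, n = 4 each). The difference of group means was -3.28 percentage points for Ighv and -1.21 for Igkv, each smaller than the spread between mice. Without TTI-101 2 the differences were -5.36 and -5.11 percentage points, and without Control 4 they were -0.65 and -0.59. The Igkv difference had the opposite sign, 0.37 percentage points, without TTI-101 4 and was -0.01 without TTI-101 3. The 5 most used Ighv genes together held 37.2% to 65.5% of Ighv reads per kb in Control and 22.1% to 50.2% in TTI-101 libraries, and the 5 most used Igkv genes held 33.5% to 53.8% and 24.2% to 55.5%.

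**Figure D3:**
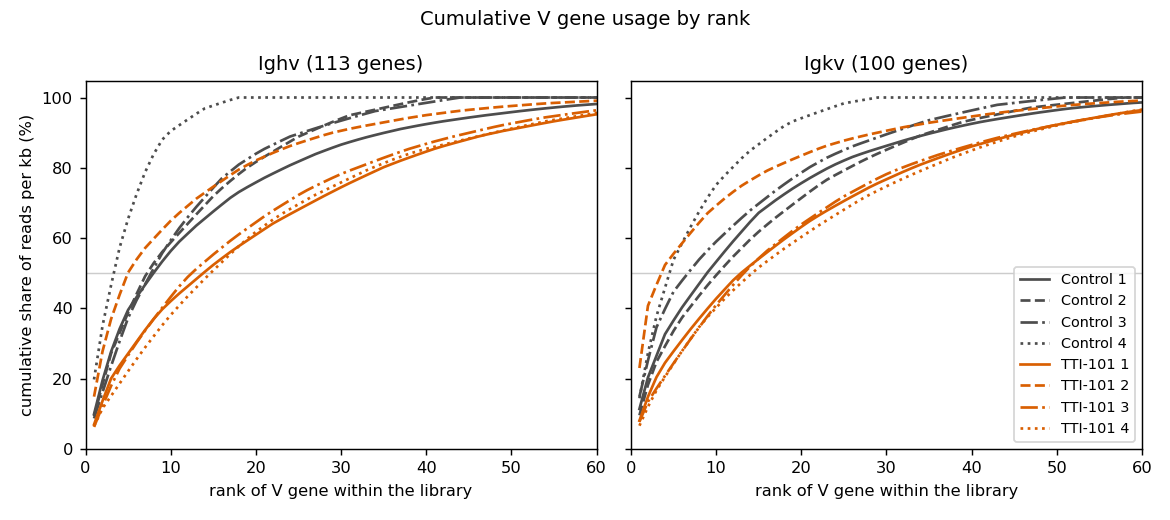
Cumulative share (%) of the reads per kb of the Ighv genes and of the Igkv genes against the rank of the gene within each library, with the grey line at 50%. TTI-101 1, 3 and 4 rise most slowly, while Control 4 and TTI-101 2 rise most steeply and reach 50% of Igkv reads per kb with 5 and 4 genes.

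Libraries shared part of their usage. The shared usage of a pair of libraries, the sum over genes of the lower of both shares per kb, had a median of 35.4% for Ighv among the 6 pairs of Control mice, 59.3% among the 6 pairs of TTI-101 mice and 43.6% among the 16 pairs between groups. For Igkv the medians were 45.0%, 62.6% and 51.6%. Pairs share libraries, and Control 2 to 4 had between 129 and 268 Ighv reads, so these values are a description without a test and depth was not tested as a part of the difference. Many abundant V genes took most of their reads from a single library. Of 27 Ighv genes with at least 100 reads in all, 14 had over 50% of them in 1 library, which was Control 1 for 12 of the 14. Of 40 such Igkv genes, 11 had over 50% in 1 library, which was Control 1 for 7 and TTI-101 2 for 4.

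The V genes fall into families of similar sequence. The Ighv1 family, the largest with 53 genes (46.9% of the Ighv genes), held 53.1% to 64.2% of Ighv reads per kb in Control and 53.0% to 63.0% in TTI-101 libraries. The Ighv5 family, with 10 genes near the constant region end of the cluster, held 0.70% to 7.21% and 5.91% to 13.7%, and the Ighv14 family held 1.77% to 12.6% and 2.02% to 3.63%. The Ighv11 family held 6.26% in Control 4 and at most 0.40% in the other 7 libraries. Among kappa genes, the Igkv1 family (10 genes) held 13.3% to 20.9% in Control and 16.1% to 23.5% in TTI-101 libraries. The Igkv4 family, the largest with 26 genes, held 7.18% to 22.5% and 9.09% to 15.4%. The Igkv3 family held 31.6% in TTI-101 2 and 5.44% to 17.4% in the other 7 libraries. The 5 genes of the Igkv5 family held 2.10%, 4.57%, 1.41% and 0.83% in Control 1 to 4 and 6.69%, 3.44%, 4.88% and 5.73% in TTI-101 1 to 4, so that only TTI-101 2 overlapped the Control range. In the Ighv4, Ighv5, Ighv12 and Ighv13 families 3 TTI-101 libraries likewise lay above every Control library.

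Usage also varied along the clusters. The 38 Ighv genes farthest from the J segments (1595 to 2571 kb away) held 44.9 ± 7.07% of Ighv reads per kb among Control and 39.6 ± 4.35% among TTI-101 lungs (SD, n = 4 each), and the 38 genes between 834 and 1562 kb held 27.3 ± 7.84% and 35.6 ± 3.04% (SD, n = 4 each). The 34 Igkv genes farthest from the J segments (1888 to 3167 kb) held 47.2 ± 4.82% and 44.1 ± 5.97% of Igkv reads per kb, and the 33 nearest ones held 30.2 ± 3.13% and 34.1 ± 9.08% (SD, n = 4 each). In every one of these bands the ranges of the groups overlapped. In TTI-101 2 the nearest band held 47.4% of Igkv reads per kb, with Igkv3-4 and Igkv3-2 both within it.

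**Figure D4:**
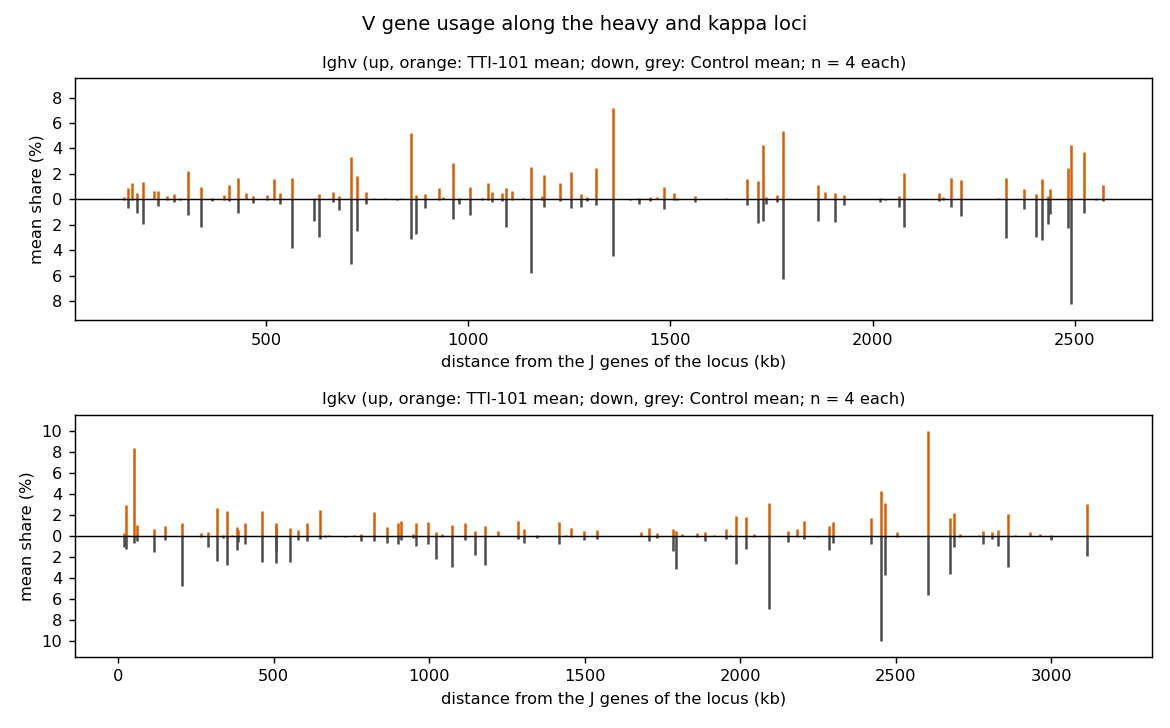
Mean share (%) of the reads per kb of each Ighv gene and each Igkv gene against its distance (kb) from the J segments of its cluster, with TTI-101 drawn upward in orange and Control downward in grey (means of 4 libraries each). Tall lines stand at Ighv1-26, Ighv1-55 and Ighv1-81 in the heavy chain cluster and at Igkv3-4, Igkv1-110 and Igkv1-117 in the kappa cluster.

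In the test between groups, 9 V genes were higher in TTI-101 lungs at an unadjusted p under 0.05 and none was lower. The 9 were 15.8% of the 57 V genes tested, where 3.02% of all genes tested were higher and 3.58% lower (edgeR quasi-likelihood test). By cluster they were 8 of 31 Igkv, 1 of 23 Ighv and 0 of 3 Iglv genes. After Benjamini-Hochberg adjustment over all 17138 genes, no V gene passed 0.05 (lowest adjusted p = 0.657, edgeR), and neither did any other gene (0%). DESeq2 called 25 V genes higher and 1 lower at an unadjusted p under 0.05 among 175 with a p-value, where 2.63% and 2.69% of all genes with a p-value were, and 0 after adjustment (0.0126% of all genes). The log2 fold change was above 0 for 47 of the 57 V genes (82.5%, against 50.6% of all genes tested), with a median of 0.93 and a range from -1.18 to 4.32, where the median of all genes was 0.003. Control 2 to 4 held few V reads, so the filter on low counts favoured V genes with reads in the TTI-101 libraries. The edgeR counts of higher and lower V genes and the share above 0 thus depend in part on that filter.

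Every TTI-101 library lay above every Control library for 2 of the 57 V genes (3.51%, against 1.53% of all genes tested), Igkv6-32 and Igkv5-43, and below for none (1.43% of all genes). Without Control 1, 64 V genes passed the filter and 48 of them (75%, against 7.15% of all genes tested) were higher at an unadjusted p under 0.05 in edgeR, with a median log2 fold change of 2.49 and again 0 after adjustment (lowest adjusted p = 0.262, edgeR; 0.00575% of all genes). Against Control 2 to 4 alone, all 4 TTI-101 libraries were higher for 36 of the 57 genes (63.2%, against 5.44% of all genes tested). These last counts were chosen after seeing that Control 1 stood apart. The remaining Control libraries held few V reads, so without Control 1 the filter was passed chiefly through TTI-101 libraries. All 64 V genes then had a log2 fold change above 0, and the counts without Control 1 are a description that cannot serve as a test.

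Kappa genes made up most of the genes past the unadjusted threshold. Igkv6-32 (chr6:70074024-70074603) had 15, 2, 1 and 0 reads in Control 1 to 4 and 25, 168, 24 and 13 in TTI-101 1 to 4, or 0.18 ± 0.25 and 3.29 ± 4.54 CPM (SD, n = 4 each). Its log2 fold change was 3.94 (standard error 1.09, edgeR unadjusted p = 0.0045), compared with 2.29 without TTI-101 2, which held 67.7% of its reads, and 5.63 without Control 1. DESeq2 gave no p-value for this gene. Igkv3-4, the leading kappa gene of TTI-101 2, had 51, 3, 2 and 0 reads in Control 1 to 4 and 171, 672, 27 and 16 in TTI-101 1 to 4. Control 1 lay above TTI-101 3 and 4 on the CPM scale, at 1.87 against 1.50 and 0.97. Its log2 fold change was 4.32 (standard error 1.34, edgeR unadjusted p = 0.0086), and it did not pass the threshold without TTI-101 2 (2.35, edgeR unadjusted p = 0.053), while it was 6.86 without Control 1. Igkv3-2, its relative, had 15, 12, 6 and 0 reads in Control 1 to 4 and 51, 183, 43 and 11 in TTI-101 1 to 4, with a log2 fold change of 3.26 (standard error 0.93, edgeR unadjusted p = 0.0055) and of 2.02 without TTI-101 2.

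Igkv2-109 (chr6:68302427-68303158) had 20, 5, 3 and 1 reads in Control 1 to 4 and 49, 90, 14 and 9 in TTI-101 1 to 4, a log2 fold change of 2.64 (standard error 0.83, edgeR unadjusted p = 0.0095), of 1.67 without TTI-101 2 and of 3.54 without Control 1. Igkv5-39 (chr6:69900424-69900977) had 29, 1, 3 and 0 reads in Control 1 to 4 and 77, 53, 35 and 14 in TTI-101 1 to 4. Its log2 fold change was 2.61 (standard error 0.86, edgeR unadjusted p = 0.012), and 4.71 without Control 1. In both genes 3 of 4 TTI-101 libraries lay above all Control libraries on the CPM scale. The remaining kappa genes past the threshold, named after their values were seen, were Igkv5-43 (log2 fold change 2.05), Igkv17-121 (1.84) and Igkv5-48 (1.73), so that 3 of the 5 Igkv5 genes were among the 8. Without Control 1 these log2 fold changes were 2.58, 2.78 and 2.66. The Igkv5 genes supply the reads of the Igkv5 family share given above, so the family share and these genes are not separate results. Igkv5-43 was 98.4% identical to Igkv5-45, and values of close relatives are uncertain. Ighv1-53 was the only heavy chain gene past the threshold, with 45, 5, 7 and 0 reads in Control 1 to 4 and 104, 27, 30 and 26 in TTI-101 1 to 4. Its log2 fold change was 1.82 (standard error 0.79, edgeR unadjusted p = 0.043). Of 8 edgeR fits that each left out 1 library, it passed the threshold in 3, and its log2 fold change ran from 1.38 without TTI-101 1 (edgeR unadjusted p = 0.143) to 3.21 without Control 1. Igkv5-48 passed in 3 of 8 such fits and Igkv17-121 in 7 of 8.

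**Figure D5:**
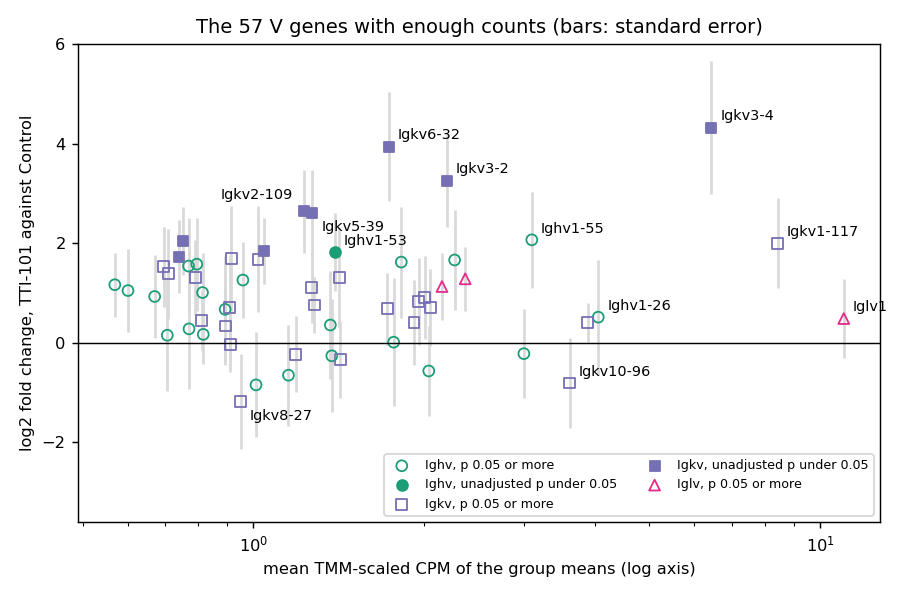
Log2 fold change of TTI-101 against Control (points, bars show the standard error) for the 57 V genes tested against the mean CPM of the groups (log axis), with filled symbols for an unadjusted edgeR p under 0.05. All 9 filled symbols lie above 0, and 47 of the 57 points do.

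Of the 5 Ighv and 5 Igkv genes with the highest mean level per kb, only Igkv3-4 passed the threshold, and Igkv4-57-1 fell below the filter and was not tested. Igkv1-117, the kappa gene with the highest mean level per kb, had 258, 41, 9 and 12 reads in Control 1 to 4 and 225, 581, 124 and 65 in TTI-101 1 to 4, a log2 fold change of 2.00 (standard error 0.90, edgeR unadjusted p = 0.051). Without Control 1, left out after it was seen to stand apart, it was 3.44. Igkv1-110, its close relative, had 155, 37, 60 and 33 reads in Control 1 to 4 and 156, 94, 55 and 53 in TTI-101 1 to 4, a log2 fold change of 0.41 (standard error 0.38). Its share of Igkv reads per kb was 3.73% to 14.8% in Control and 2.89% to 5.58% in TTI-101 libraries. Igkv10-96, whose family is known from anti-arsonate antibodies, had 422 reads in Control 1, 11 to 24 in the other Control libraries and 28 to 102 in TTI-101 libraries. Igkv4-57-1 had 346 of its 453 reads in Control 1, and 0, 8 and 0 in Control 2 to 4.

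Of the abundant heavy chain genes, Ighv1-26 had 332, 7, 7 and 2 reads in Control 1 to 4 and 96, 204, 27 and 33 in TTI-101 1 to 4. Its log2 fold change with all libraries was 0.52 (standard error 1.16), compared with 3.91 without Control 1 and with -0.48 without TTI-101 2. Ighv1-55 had 56, 13, 8 and 22 reads in Control 1 to 4 and 49, 277, 12 and 16 in TTI-101 1 to 4, a log2 fold change of 2.07 (standard error 0.97, edgeR unadjusted p = 0.057) that was 0.001 without TTI-101 2. Ighv1-81 was among the 3 most used heavy chain genes in Control 1, 2 and 3, with 8.13%, 9.01%, 7.44% and 8.22% of Ighv reads per kb in Control 1 to 4 and 3.38%, 6.34%, 5.72% and 1.76% in TTI-101 1 to 4. These shares did not overlap between groups, although its log2 fold change on the CPM scale was -0.22 (standard error 0.90), and the shares were compared after they were seen. Ighv3-6 had 77, 0, 22 and 2 reads in Control 1 to 4 and 35, 144, 52 and 18 in TTI-101 1 to 4 (log2 fold change 1.66, standard error 1.01). Ighv7-3, Ighv1-9 and Ighv5-9-1, the leading genes of Control 2, Control 4 and TTI-101 3, had at most 36, 47 and 64 reads in any library. Ighv1-75, named after its values were seen, had 345 reads in Control 1 and 0 to 9 in the other 7 libraries.

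The V genes with the lowest p-values on the lower side were all highest in Control 1. Igkv8-27 had 103, 7, 19 and 0 reads in Control 1 to 4 and 21, 3, 15 and 9 in TTI-101 1 to 4 (log2 fold change -1.18, standard error 0.95, edgeR unadjusted p = 0.240). Ighv5-6 had 124, 2, 8 and 0 reads in Control 1 to 4 and 17, 16, 16 and 8 in TTI-101 1 to 4 (log2 fold change -0.85, standard error 1.06). Igkv10-96 (-0.81), Ighv1-76 (-0.65) and Ighv9-3 (-0.57) were the others, on the log2 fold change scale. None of the 5 passed the threshold, and without Control 1 the log2 fold changes of all 5 were above 0, from 0.25 for Igkv8-27 to 1.90 for Ighv5-6.

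The 3 lambda genes were all tested, and none passed the threshold. Iglv1, the V gene with the most reads in the series, had 737, 75, 76 and 11 reads in Control 1 to 4 and 549, 238, 188 and 102 in TTI-101 1 to 4, or 9.11 ± 12.1 and 12.9 ± 6.15 CPM (SD, n = 4 each). On the log2 scale it differed by 0.49 (standard error 0.80). Iglv2 had 80, 19, 2 and 18 reads in Control 1 to 4 and 129, 59, 32 and 28 in TTI-101 1 to 4 (log2 fold change 1.13, standard error 0.68). Iglv3 had 89, 24, 8 and 4 reads in Control 1 to 4 and 132, 37, 46 and 62 in TTI-101 1 to 4 (log2 fold change 1.28, standard error 0.65, edgeR unadjusted p = 0.075). All 4 TTI-101 libraries lay above Control 2 to 4 for each of the 3 genes on the CPM scale, and without Control 1 their log2 fold changes were 2.04, 1.91 and 2.24. Control 1 was set aside here after it was seen to stand apart, so these values are a description and not a test. Iglv3 shares little sequence with Iglv1 and Iglv2, and no 75-base word with either.

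Of 6 germline V genes with textbook antigen associations, 5 had too few reads to be tested. Ighv11-2 and Ighv12-3, which B-1 cells use against phosphatidylcholine together with Igkv14-126 and Igkv4-91, had 17 and 8 reads in all. Ighv11-2 had 10 of its 17 reads in Control 4 and 0 to 3 in each other library. Ighv12-3 had 1, 0, 0 and 0 reads in Control 1 to 4 and 4, 0, 2 and 1 in TTI-101 1 to 4. Igkv14-126 had 18, 3, 3 and 4 reads in Control 1 to 4 and 16, 6, 10 and 7 in TTI-101 1 to 4, and Igkv4-91 had 10, 3, 0 and 0 in Control and 10, 12, 7 and 13 in TTI-101 libraries. Ighv7-1, which encodes the T15 idiotype against phosphorylcholine, had 0 to 7 reads per library. These genes fell below the filter and were not tested. Ighv1-72, the germline gene of the response of C57BL/6 mice to the hapten NP, had 45, 3, 13 and 7 reads in Control 1 to 4 and 14, 14, 17 and 20 in TTI-101 1 to 4, a log2 fold change of 0.17 (standard error 0.59, edgeR unadjusted p = 0.781).

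V gene reads were set beside those of the constant (C) regions, which are spliced to the rearranged V region in the same transcript. Per kb, Ighv reads per heavy chain C read were 0.96, 0.27, 0.26 and 0.37 in Control 1 to 4 and 0.50, 0.46, 0.45 and 0.43 in TTI-101 1 to 4. Igkv reads per Igkc read were 0.68, 0.31, 0.19 and 0.37 in Control 1 to 4 and 0.64, 0.53, 0.62 and 0.57 in TTI-101 1 to 4, so that Control 1 was the highest library in both. Of 11 C genes tested, 4 rose at an unadjusted edgeR p under 0.05 and none fell, where 3.02% of all genes tested were higher and 3.58% lower. Ighm, the constant region of IgM, was at 219, 98.3, 98.8 and 38.6 CPM in Control 1 to 4 and 327, 659, 341 and 243 CPM in TTI-101 1 to 4 (log2 fold change 1.78, standard error 0.47, edgeR unadjusted p = 0.0035). Iglc2 (1.07), Ighd (1.15) and Iglc3 (0.80) rose on the log2 scale, while Igkc (0.73), Iglc1 (0.53) and Igha (-0.03) did not pass the threshold. As a share of heavy chain C reads per kb, Ighm held 31.8% to 43.7% in Control and 53.5% to 63.1% in TTI-101 libraries, and Igha held 34.6% to 48.1% and 6.82% to 22.4%. The IgG genes together held 20.2% in Control 1 and 13.0% in TTI-101 2, against 1.54% to 4.88% in the other 6 libraries.

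Genes that act on the V genes were counted from lists of known function, where 3.02% of all genes tested were higher and 3.58% lower. Of 14 transcription factors of immunoglobulin loci, 6 rose at an unadjusted edgeR p under 0.05 and none fell, with a median log2 fold change of 0.55. They were Pou2af1 (1.66), the coactivator of octamer-binding factors at V promoters, Spib (1.46), Ikzf3 (1.28), Pou2f2 (1.00), Irf4 (0.85) and Pax5 (0.83). Pax5 is also counted among the B cell genes and Irf4 among the plasma cell genes, so these counts are not separate. The part of B cell number in them was not tested. Of 9 tested genes of V(D)J recombination, none rose or fell (median -0.05), and Rag1, which cuts at the recombination signals, was at 0 to 0.29 CPM and was not tested. Of 9 genes of hypermutation and class switching, only the mismatch repair gene Msh6 passed the threshold and fell (-0.50). The surrogate light chain list had 1 of 4 genes tested, which did not pass.

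Markers of other cells were counted at the same unadjusted edgeR p under 0.05, where 3.02% of all genes tested were higher and 3.58% lower. Their part in the V gene values was not tested. Of 7 plasma cell genes tested, Irf4 rose and Derl3 fell (-1.03), with a median of 0.04. Jchain, which links polymeric IgA and IgM, was at 96.3, 26.1, 28.8 and 22.5 CPM in Control 1 to 4 and 49.2, 99.02, 20.4 and 10.03 CPM in TTI-101 1 to 4, so that it was high in Control 1 and TTI-101 2, the libraries with the highest V gene sums. The summed level of the plasma cell list did not follow the V gene sums, at 873, 745, 874 and 1159 CPM in Control 1 to 4 and 661, 948, 676 and 628 CPM in TTI-101 1 to 4, with the highest value in Control 4, which had the lowest V gene sums. Jchain was a small part of that sum, and which cells of the lung made the other genes of the list was not tested. Of 4 germinal centre genes tested, S1pr2 (0.45) rose and Gcsam (-1.17) fell, and the summed level was 96.8 to 122 and 106 to 140.5 CPM. Of 6 T cell genes, Trac (0.68) rose, at a summed 19.1 to 68.8 and 39.6 to 75.4 CPM. Of 5 red cell genes 4 rose (Hba-a1, Hbb-bs, Hbb-bt and Alas2, by 2.46 to 2.87 on the log2 scale), with a summed 58.0 to 264 CPM in Control and 205 to 1586 CPM in TTI-101 lungs. The lung markers Sftpc, Scgb1a1, Ager and Pecam1 were abundant in all libraries, at a summed 29044 to 72880 CPM, and Scgb1a1 fell (-0.75).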

How the data were processed

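Whole-lung poly(A) RNA of 4 Control and 4 TTI-101 CC-LR mice was sequenced by the study with a strand-marking library kit. The authors deposited whole-number counts per Ensembl gene with no normalization. The submitters' processing notes name STAR, DESeq2 and mm10, and the counting tool and its use of strand are not given in the sources used here. Coordinates and lengths of 218 and 211 of the 218 V genes were the same in GENCODE M21. Counts were compared in R 4.3.3 with edgeR 4.0.16 (filterByExpr with a minimum count of 10, TMM, robust quasi-likelihood test, no covariate), fitted over the whole table with Benjamini-Hochberg adjustment. Each library is 1 mouse, so p-values measure the spread between mice. limma 3.58.1 (voom), DESeq2 1.42.0 with its size factors, library totals, 2 other filters, the replicate number as a block and leaving out each library were alternatives. The main edgeR fit, limma-voom and DESeq2 were checked on simulated counts with the same dispersion for every gene, and the other alternatives were not. The V genes, gene lists and tests were chosen with earlier results of these data known. Some genes of the marker and pathway lists are not reported here and were left out of the counts and sums. Named V genes were the 5 Ighv and 5 Igkv genes of highest mean level per kb, every gene leading a library, all Iglv genes, 6 genes with known antigen associations, and the 5 higher and 5 lower tested genes with the lowest p. Usage shares divide each count by the deposited gene length. Precision is limited by the V reads per library, from 397 to 8234.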

Additional observations from a re-analysis of the deposited data

Results flagged for a closer look

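In a group of 4 mice, a library was singled out when its gap to the nearest other library exceeded 0.829 of the range of the group (Dixon's criterion). Chance singles out about 1 in 20 groups where values are normally distributed, and 9 were found in 26 groups examined, many of which share libraries and reads. The CPM sums were examined without a log transformation, so that rate may not hold for them. For Control 1 this gap was 0.945 of the range for summed Ighv CPM (128 against 8.25 to 14.9 in Control 2 to 4), 0.932 for summed Igkv CPM (140.4 against 15.0 to 23.6) and 0.841 for summed Iglv CPM (33.2 against 2.11 to 7.05). Its Ighv reads per heavy chain constant region read, both per kb, also stood apart, at 0.96 against 0.26 to 0.37, a gap of 0.851 of the range. In Control 4 the share of the leading Ighv gene was 19.7% against 8.64% to 9.85% in the other Control libraries (gap 0.891), and the effective number of Ighv genes was 9.83 against 23.3 to 23.9 (gap 0.954). In TTI-101 2 the leading Ighv gene held 14.8% against 6.22% to 6.89% in the other TTI-101 libraries (gap 0.922), and the leading Igkv gene held 23.0% against 6.57% to 7.99% (gap 0.913). The expected number of Igkv genes at equal reads in TTI-101 2 was 44.0 against 59.6 to 61.5 (gap 0.890).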

How the results depend on the processing

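No V gene passed an adjusted p of 0.05 under any alternative run. The number higher at an unadjusted p under 0.05, 9 of 57 in edgeR, was 25 with DESeq2 (175 tested), 24 with limma-voom, 31 with no filter (200 tested), 0 with at least 10 counts in every library (3 tested), 10 with DESeq2 size factors and 9 with library totals. Leaving out 1 library gave 9 to 48, the highest without Control 1, with 15 without Control 2, 16 without Control 4 and 14 without TTI-101 4. The number lower, 0, was 1 with DESeq2 and 0 to 2 with 1 library left out (2 without Control 4). With a replicate block 14 were higher, but the labels link the samples only by a number. Deviations of same-numbered samples correlated at 0.07 to 0.39, over 0.1 in 2 of 4 pairs, and 4 of 8 libraries correlated best with their own number. The highest of these correlations was between Control 1 and TTI-101 1, which also had the highest total counts. The part of depth in it was not tested. The log2 ratio of sums ranged with 1 library left out from 0.22 to 2.38 for Ighv, 0.65 to 2.40 for Igkv and 0.36 to 2.05 for Iglv, each highest without Control 1, and remained above 0 under every alternative. The log2 fold changes of 6 genes below 0 in edgeR were above 0 with limma-voom (Ighv1-76 0.28, Ighv1-81 0.11, Ighv5-6 0.92, Ighv9-3 0.49, Igkv10-96 0.28, Igkv3-12 0.50) and, except Ighv1-76, with the replicate block (Ighv1-81 0.37, Ighv5-6 0.61, Ighv9-3 0.59, Igkv10-96 0.38, Igkv3-12 0.21). With 1 library left out, log2 fold changes ranged from -1.42 to 1.11 for Ighv1-76, -0.89 to 1.62 for Ighv1-81, -1.24 to 1.90 for Ighv5-6, -0.92 to 1.61 for Ighv9-3, -1.17 to 1.48 for Igkv10-96, -0.61 to 0.33 for Igkv3-12 and -1.57 to 0.25 for Igkv8-27, each above 0 without Control 1. They ranged from -0.48 to 3.91 for Ighv1-26, below 0 without TTI-101 2. For Ighv1-72 they ranged from -0.13 to 0.94, below 0 without Control 2 (-0.13), without Control 4 (-0.0002) and without TTI-101 4 (-0.01). Among the other alternatives of the named genes, 206 kept the side of the unadjusted threshold, 22 passed it only in the alternative and 6 no longer passed it. The cause was not tested. Depth limits the edgeR test to the 57 V genes that pass the filter, and the other 161 were given as counts.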

Other observations

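The 15 Ighv genes without a read in any library were 93.7% identical to their nearest relative at the median, compared with 95.2% for the 98 genes with a read. Their highest share of 75-base words found in another immunoglobulin gene or pseudogene was 34.4%. The 2 Igkv genes without a read were 96.9% identical to their nearest relative at the median, compared with 94.2% for the 98 with a read, and shared 10.8% against 5.78% of their 75-base words. The 155 V pseudogenes of the table held 98 reads over 29 genes, 0.40% as many as the 24379 reads of the V genes. Ighv1-71 and Ighv1-62-2, which shared 97.2% and 91.1% of their 75-base words with other genes, had 5 reads each over the 8 libraries.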
